A study of Danio rerio with 30 samples.

Results

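The difference between 2 responses to lipopolysaccharide (LPS) was measured across all genes of the adult zebrafish spleen: the response of fish incubated as embryos at 24 °C minus the response of fish incubated at 28 °C. It rests on 20 of the 30 RNA sequencing libraries of the series, chosen by their labels as all libraries of these incubation temperatures. The other 10 libraries, of fish incubated at 32 °C, entered only 1 alternative fit. All fish were adults of the AB strain aged 100 days. Eggs and larvae were kept at 24 °C or 28 °C, and all adults lived at 28 °C. The groups were 24 °C LPS, 24 °C control, 28 °C LPS and 28 °C control, with 5 libraries each. LPS fish received 2 µl of LPS from Pseudomonas aeruginosa at 50 mg/ml into the body cavity, and their spleens were taken after 12 h. The treatment of control fish, the hour of sampling and whether fish were male or female are details not given in the sources used here. Replicates are numbered as separate samples of a group, and a p-value covers only the spread among these libraries, which may be technical in part.

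LPS is the outer membrane glycolipid of Gram-negative bacteria. In mammals it is sensed through TLR4 and drives NF-kB, which switches on cytokines, chemokines, acute phase proteins and its own inhibitors; fish respond to it as well, although the receptor used is less clear. The spleen holds macrophages, lymphocytes and thrombocytes in a mesh through which blood flows, so its RNA also reports red cells. A difference of responses is 0 where LPS moved a gene by the same factor at both temperatures, positive where the LPS to control ratio was higher at 24 °C, and negative where that ratio was lower at 24 °C. A positive value can therefore come from a rise at 24 °C, a fall at 28 °C, or both, and the values of all 4 groups are given below.

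Library totals ranged from 14840723 to 23401031 counts. TLX1, a transcription factor needed for spleen formation, had 86.4 to 326 CPM (counts scaled to a common library total) in every library. SPIC, a transcription factor of red pulp macrophages in mammals, had 0 counts in all 20 libraries, while marco, a macrophage scavenger receptor, had 1005 to 3917 CPM on that scale. Markers of other organs were high in some libraries. Ovary markers reached a sum of 11534 CPM in 24 °C control replicate 4, against at most 361 CPM in the other 4 libraries of its group. Summed levels of marker lists are relative to the library total. Unless stated, CPM of single genes from here on are relative to the TMM-scaled library size. The sum of acinar pancreas markers was 62413 CPM in the same library, 52053 CPM in 28 °C LPS replicate 8 and 34354 CPM in 28 °C control replicate 7. Values without 24 °C control replicate 4 are therefore given for part of the results, and the named calls that ended without it are listed below. In whole spleens, fewer cells of a type and less RNA per cell cannot be told apart.

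By the quasi-likelihood test of edgeR, 226 of 17196 tested genes differed in their response to LPS at a Benjamini-Hochberg adjusted p under 0.05, which is 1.31% of the genes. The response was higher at 24 °C for 154 genes (0.896%) and lower at 24 °C for 72 genes (0.419%). The genes with a higher response included the chemokine genes cxcl8a and cxcl11.1, the cytokine genes tnfb and il34, the oxidase subunit gene NCF4 and ACOD1, which makes the antibacterial metabolite itaconate. Those with a lower response included ciita and cd74a of antigen presentation and RSAD2 and stat2 of the interferon pathway. At an unadjusted p under 0.05 there were 3736 genes. Over all tested genes the median difference was -0.12 on the log2 scale.

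The called genes had a common layout across the 4 groups. All 154 genes with a higher response at 24 °C had a fitted LPS response above 0 at 24 °C and below 0 at 28 °C, a layout found in 4673 of the 17196 tested genes. Their median response was 0.91 at 24 °C and -0.76 at 28 °C, and their median difference was 1.63. Of the 72 genes with a lower response at 24 °C, 71 had the opposite layout, which 6254 of all tested genes shared. Their median response was -0.83 at 24 °C and 1.00 at 28 °C, and their median difference was -1.89. The exception was si:ch211-283g2.5, with a response of 0.30 at 24 °C and 1.55 at 28 °C. The genes were called on these same values, so these counts describe the calls and are not a further test.

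**Figure D1:**
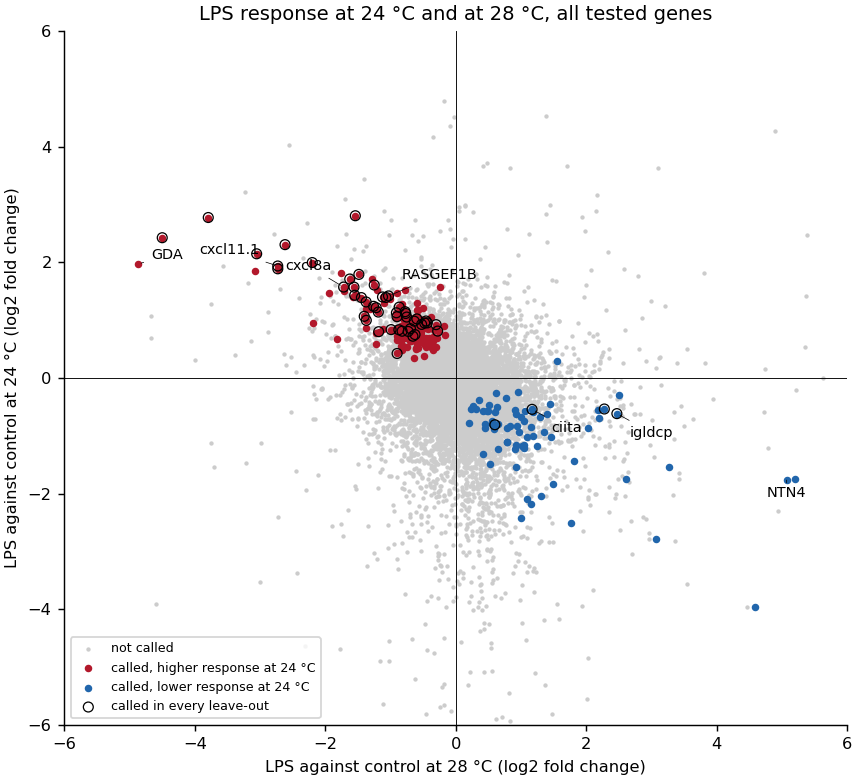
Each point is 1 of 17196 tested genes, with the fitted log2 fold change of LPS against control at 28 °C on the x axis and at 24 °C on the y axis; coloured points are the 226 called genes, and black rings mark the 51 that stayed called whichever of the 20 libraries was left out. The 154 genes with a higher response lie in the upper left and 71 of the 72 with a lower response in the lower right, and 22 genes, none of them called, lie beyond the axis limits of 6.

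The difference of responses can also be read as the gap between temperatures in LPS fish minus the gap between temperatures in control fish. Among the 154 genes with a higher response at 24 °C, the median gap, 24 °C against 28 °C, was 0.61 in LPS fish and -1.05 in control fish. Among the 72 with a lower response it was -0.68 in LPS fish and 1.07 in control fish. The gap in controls was the larger of the 2 in 132 of the 154 genes and in 53 of the 72, against 57.0% of all tested genes. Both gaps enter the difference on which the genes were called, so this too is a description.

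Each simple comparison on its own called fewer genes than the difference did. LPS against control at 24 °C called 5 genes (0.0291% of those tested), all of them higher with LPS: RASGEF1B, PER2, TAGAP, il34 and ets2. No gene was called lower. LPS against control at 28 °C called 13 genes (0.0756%), of which 9 were higher (0.0523%) and 4 lower (0.0233%) with LPS. The 4 lower genes were RASGEF1B, ALCAM, si:dkey-58f10.3 and si:dkey-33i11.9. Control fish of 24 °C against those of 28 °C gave 148 genes (0.861%), 44 higher (0.256%) and 104 lower (0.605%) at 24 °C. LPS fish of 24 °C against those of 28 °C gave 0 genes with edgeR, with a smallest adjusted p of 0.0625; 1699 genes had an unadjusted p under 0.05, and DESeq2 called 45. These comparisons share groups with the difference of responses and with each other.

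Overlap was also counted library by library. Of the 154 genes with a higher response, 100 had no overlap between the LPS and control libraries of 24 °C, against 3.79% of all tested genes, and 40 had none at 28 °C, against 1.33%. Among the 72 with a lower response the numbers were 26 at 24 °C and 19 at 28 °C. LPS and control were apart at both temperatures for 22 of the 154 and 3 of the 72 genes, against 0.157% of all tested genes. Control libraries of the 2 temperatures did not overlap for 117 of the 154 and 35 of the 72 genes, against 3.59% of all genes. LPS libraries of the 2 temperatures did not overlap for 33 and 15 genes, against 1.73%. Again these libraries also made the calls.

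The smallest p of all belonged to RASGEF1B (ENSDARG00000033614), a guanine nucleotide exchange factor that LPS induces in mouse macrophages. It had 143, 184, 214, 250.1 and 189.5 CPM in 24 °C LPS libraries, against 75.1, 54.6, 72.2, 85.7 and 78.8 CPM in 24 °C controls. At 28 °C it had 111, 149.7, 68.7, 146 and 103 CPM in LPS libraries, against 198, 264, 229, 244 and 249 CPM in controls. LPS and control did not overlap at either temperature, with LPS above control at 24 °C and below it at 28 °C. The lowest control of 28 °C lay above the highest control of 24 °C. The log2 response was 1.42 ± 0.20 (SE; edgeR adjusted p 0.00911) at 24 °C and -1.03 ± 0.19 (edgeR adjusted p 0.0444) at 28 °C. The difference was 2.45 ± 0.28 with an edgeR adjusted p of 0.000393, and it was 2.43 without 24 °C control replicate 4. A second gene with this symbol (ENSDARG00000044251), a paralog whose reads could be shared with the first, differed by 2.04 ± 0.32. Both stood in the list of leukocyte adhesion and migration genes, although their known biochemistry is nucleotide exchange.

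ALCAM, an adhesion molecule of activated leukocytes and endothelium that binds CD6 in mammals, was next. It had 102, 167, 105, 89.7 and 77.2 CPM in 24 °C LPS libraries, against 35.4, 37.6, 40.2, 53.9 and 39.1 CPM in 24 °C controls. At 28 °C the order was turned round, with 40.8, 36.1, 46.2, 34.1 and 44.6 CPM in LPS libraries, against 68.7, 193, 117, 62.0 and 110.0 CPM in controls. None of the 4 pairs of groups that differ in 1 factor overlapped, and every 24 °C LPS and 28 °C control library lay above every 24 °C control and 28 °C LPS library. The difference was 2.84 ± 0.37 (edgeR adjusted p 0.00156) and 2.80 without 24 °C control replicate 4.

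The transcription factor gene ets2, an Ets family member downstream of Ras signalling, showed the same order. It had 96.5, 89.2, 99.9, 90.9 and 66.7 CPM in 24 °C LPS libraries, against 40.7, 35.0, 30.5, 50.1 and 57.1 CPM in 24 °C controls. It had 54.8, 71.2, 44.0, 61.4 and 58.5 CPM in 28 °C LPS libraries, against 95.2, 96.1, 75.8, 125 and 97.3 CPM in 28 °C controls. The groups did not overlap at either temperature. The difference was 1.81 ± 0.25 (edgeR adjusted p 0.00316). Of the 41 tested members of the list of immediate early and stress transcription factors, 3 were called, all with a higher response: ets2, CEBPA, a driver of myeloid differentiation, and JUND, an AP-1 subunit. The list's median difference was 0.56, against -0.12 over all genes. For this list and those below, the shares over all tested genes were 1.31% called and 7482 of 17196 with a difference above 0. CEBPA averaged 132 ± 34.7 CPM in 24 °C LPS and 54.2 ± 12.6 CPM in 24 °C control libraries, and 94.6 ± 46.2 CPM in 28 °C LPS and 168 ± 60.6 CPM in 28 °C control libraries (SD, n = 5 each). Its difference was 2.11 (edgeR adjusted p 0.0271), and the call ended in 5 of the 20 fits with 1 library left out. CEBPD, its stress-inducible relative, had a difference of 1.73 that missed the threshold (edgeR adjusted p 0.0593).

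**Figure D2:**
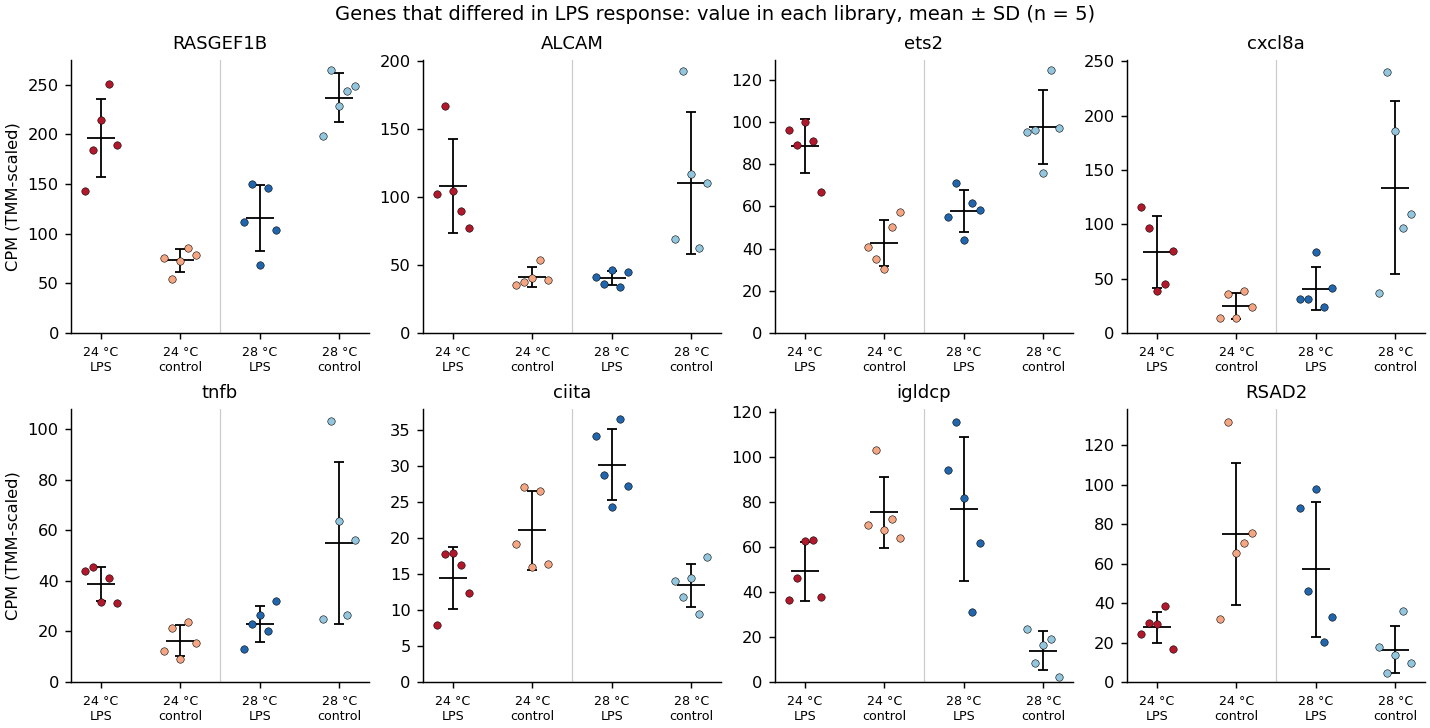
Points are the 5 libraries of each group and bars the mean ± SD in CPM for 8 called genes, RASGEF1B being the gene with the smallest p. In the upper row and for tnfb, LPS means lie above control means at 24 °C and below them at 28 °C; for ciita, igldcp and RSAD2 the order is the reverse.

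Chemokines and cytokines are the signals that carry inflammation between cells. Of 40 tested chemokine ligand genes, 2 were called, both with a higher response, against 1.31% of all tested genes. Of the 40, 25 had a difference above 0, against 7482 of all 17196 genes, and the list's median was 0.70. cxcl8a encodes an interleukin-8 type chemokine that draws neutrophils. It had 116, 96.6, 39.0, 45.1 and 75.9 CPM in 24 °C LPS libraries, against 13.6, 36.0, 13.3, 38.2 and 24.1 CPM in 24 °C controls. It had 31.5, 31.3, 74.6, 24.1 and 41.6 CPM in 28 °C LPS libraries, against 37.1, 239.9, 186, 96.5 and 109.8 CPM in 28 °C controls. Every LPS library of 24 °C exceeded every control there, if narrowly, while at 28 °C the groups overlapped, with replicate 3 high among LPS libraries and replicate 1 low among controls. The difference was 3.29 ± 0.64 (edgeR adjusted p 0.0199). cxcl11.1, a CXCR3 ligand family member, differed by 4.67 ± 0.90 (edgeR adjusted p 0.0199), with 31.3 ± 16.1 CPM in 24 °C LPS and 8.16 ± 5.52 CPM in 24 °C control libraries, and 13.7 ± 10.6 CPM in 28 °C LPS and 90.8 ± 68.8 CPM in 28 °C control libraries (SD, n = 5 each).

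Of 20 tested inflammatory cytokine genes, 3 were called, all with a higher response at 24 °C, against 1.31% of all tested genes. Of the 20, 19 had a difference above 0, against 7482 of all 17196 genes. The median difference of the 20 was 1.897, from a median response of 0.90 at 24 °C and -1.08 at 28 °C. Over all tested genes those medians were -0.12, -0.11 and 0.01. tnfb, a tumour necrosis factor paralog of teleosts, had 43.8, 45.3, 31.7, 41.1 and 31.1 CPM in 24 °C LPS libraries, against 12.2, 21.4, 9.26, 23.6 and 15.2 CPM in 24 °C controls. It had 13.2, 23.0, 26.3, 20.01 and 32.1 CPM in 28 °C LPS libraries, against 25.0, 103, 63.7, 26.6 and 56.1 CPM in 28 °C controls. The groups were apart at 24 °C and overlapped at 28 °C, where controls 1 and 5 lay far below the other 3. The difference was 2.501 ± 0.49 (edgeR adjusted p 0.0199). il34, a ligand of the CSF1 receptor in mammals, differed by 1.23 ± 0.22 (edgeR adjusted p 0.0160) and was also called for LPS at 24 °C alone, at 0.92 ± 0.16 (edgeR adjusted p 0.0376). Its mean was 40.0 ± 6.83 CPM in 24 °C LPS and 21.1 ± 3.72 CPM in 24 °C control libraries, and 31.2 ± 5.00 CPM in 28 °C LPS and 38.5 ± 3.38 CPM in 28 °C control libraries (SD, n = 5 each). The third, il12bb, a paralog of the interleukin-12 p40 subunit gene, was near the detection limit, with a mean of 1.26 ± 1.105 CPM in 28 °C controls and below 0.3 CPM in each of the other groups. Its fitted difference of 6.93 depends on the few counts in those groups and on the prior count.

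Classical targets of LPS had positive differences that did not pass the test of edgeR. tnfa had a difference of 2.68 (edgeR adjusted p 0.0575), il6 of 2.78 (edgeR adjusted p 0.0653) and il1b of 2.17 (edgeR adjusted p 0.117). DESeq2 called tnfa, as did 2 of the 20 edgeR fits with 1 library left out. Of the 20 inflammatory cytokine genes 12 had an unadjusted p under 0.05, DESeq2 called 10 and limma voom 2. These counts were 3736, 1127 and 547 over all 17196 tested genes. For il1b the fitted response was 0.87 at 24 °C and -1.29 at 28 °C, neither called. il6 and il1b were named after their values were seen. Among 28 regulatory cytokine and feedback genes 0 were called with edgeR, 12 had an unadjusted p under 0.05, DESeq2 called 6 and 20 had a difference above 0, with a median of 0.65.

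Receptors and the pathway below them carry the signal into the cell. Of 30 tested Toll-like receptor and adaptor genes 1 was called, against 1.31% of all tested genes. This was tlr5b, a flagellin receptor paralog. It had 97.4, 95.0, 116, 101 and 105 CPM in 24 °C LPS libraries, against 72.3, 54.4, 35.4, 62.7 and 69.5 CPM in 24 °C controls. It had 53.3, 87.7, 79.5, 38.1 and 63.1 CPM in 28 °C LPS libraries, against 93.7, 116, 82.7, 117 and 124 CPM in 28 °C controls. The 24 °C groups were apart, and at 28 °C LPS replicate 2 lay above control replicate 3. The difference was 1.54 ± 0.29 (edgeR adjusted p 0.0199). The list as a whole did not follow it: 11 of 30 members had a difference above 0, and the median was -0.18. Of 24 NF-kB subunit and inhibitor genes 1 was called, against 1.31% of all tested genes. This was nfkbiaa, an inhibitor that NF-kB itself induces, at 1.79 (edgeR adjusted p 0.0462). It lay between 1.53 and 1.98 with 1 library left out, called in 6 of those 20 fits. Its partner nfkbiab had 1.23 (edgeR adjusted p 0.0652).

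Of 31 cytokine receptor genes, 2 were called with a higher and 1 with a lower response. tnfrsf9a, of the family of the costimulatory receptor 4-1BB, differed by 2.49 (edgeR adjusted p 0.0268), with 25.6 ± 10.5 CPM in 24 °C LPS and 16.1 ± 6.38 CPM in 24 °C control libraries, and 21.4 ± 3.54 CPM in 28 °C LPS and 75.4 ± 42.7 CPM in 28 °C control libraries (SD, n = 5 each). il10ra, a receptor subunit for interleukin-10, differed by 1.28 (edgeR adjusted p 0.0331). It lay between 1.16 and 1.42 with 1 library left out, and was called in 8 of those 20 fits. csf1rb, a CSF1 receptor paralog, went the other way at -3.20 ± 0.64 (edgeR adjusted p 0.0234). It had 1.03, 2.28, 0.894, 1.85 and 1.304 CPM in 24 °C LPS libraries, against 9.70, 5.68, 3.93, 8.64 and 3.64 CPM in 24 °C controls. It had 4.98, 4.85, 4.02, 4.002 and 3.98 CPM in 28 °C LPS libraries, against 5.41, 1.23, 1.18, 0.848 and 1.48 CPM in 28 °C controls. The groups were apart at 24 °C, while at 28 °C control replicate 1 was the highest of all 10 libraries.

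Phagocytes kill microbes with oxidants and with enzymes they induce on activation. All 7 tested subunit and partner genes of the phagocyte NADPH oxidase, the enzyme that makes superoxide, had a difference above 0, with a median of 1.38. Over all genes 7482 of 17196 did. Partners in 1 complex are not independent observations, and 1 of the 7 was called. This was NCF4, the p40phox subunit. It had 81.7, 83.5, 75.4, 71.3 and 57.9 CPM in 24 °C LPS libraries, against 29.1, 47.8, 28.7, 53.0 and 46.3 CPM in 24 °C controls. It had 37.7, 66.2, 70.5, 49.6 and 74.3 CPM in 28 °C LPS libraries, against 86.5, 93.7, 119, 76.1 and 107 CPM in 28 °C controls. Groups did not overlap at either temperature, and the difference was 1.55 ± 0.29 (edgeR adjusted p 0.0194). The p47phox gene NCF1 had 1.88 and the p22phox gene cyba had 1.38, neither past the threshold.

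ACOD1 encodes the itaconate-producing enzyme of activated macrophages. It had 442, 398, 490.3, 462 and 367 CPM in 24 °C LPS libraries, against 118, 244, 125, 175 and 206 CPM in 24 °C controls. It had 67.4, 244, 265, 54.1 and 180.2 CPM in 28 °C LPS libraries, against 266, 656, 329.9, 462 and 390.0 CPM in 28 °C controls. All 4 pairs of groups that differ in 1 factor were apart, at 28 °C by a narrow margin between LPS replicate 3 and control replicate 1. The difference was 2.69 ± 0.52 (edgeR adjusted p 0.0199).

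Of 35 tested acute phase and secreted antimicrobial genes, 3 were called with a higher response and 1 with a lower, and the median was 0.51. Besides ACOD1 these were CP, pglyrp5 and crp3. CP encodes ceruloplasmin, a copper-carrying ferroxidase of plasma. It had 371, 231, 185, 139 and 149 CPM in 24 °C LPS libraries, against 78.2, 51.3, 81.6, 70.9 and 116 CPM in 24 °C controls. It had 54.9, 131, 203, 51.0 and 102 CPM in 28 °C LPS libraries, against 419, 408, 295, 220.3 and 242 CPM in 28 °C controls. The groups were apart at both temperatures, with a difference of 2.98 ± 0.50 (edgeR adjusted p 0.0119). pglyrp5, a peptidoglycan recognition protein, differed by 3.41 (edgeR adjusted p 0.0247), and its groups overlapped at both temperatures. crp3, of the C-reactive protein family, had the largest negative value among called genes, -8.54, but reached 38.4 CPM in 24 °C control replicate 4 and 5.53 CPM in 24 °C control replicate 5, and at most 1.55 CPM in each of the other 18 libraries. Without 24 °C control replicate 4 its difference was -6.03 and the call ended (edgeR adjusted p 0.0793).

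Marker genes of leukocytes were measured beside these results. The 20 neutrophil markers summed to 1993 to 2939 CPM in 24 °C LPS libraries, 1066 to 2231 CPM in 24 °C controls, 961 to 2864 CPM in 28 °C LPS libraries and 2219.9 to 3235 CPM in 28 °C controls. Of them 16 had a difference above 0, against 7482 of all 17196 genes, and the list's median was 0.43. Against 1.31% of all tested genes, 1 of the 20 was called: srgn, the proteoglycan serglycin of secretory granules, at 1.34 (edgeR adjusted p 0.0438). Its difference lay between 1.19 and 1.53 with 1 library left out, and was called in 6 of those 20 fits. The 44 matched macrophage and dendritic markers summed to 7787 to 11551 CPM in 24 °C LPS libraries, 4853 to 7724 CPM in 24 °C controls, 3804 to 11439 CPM in 28 °C LPS libraries and 5853 to 11994 CPM in 28 °C controls. Sums of 24 °C LPS libraries lay above those of 24 °C controls, if narrowly, and at 28 °C they overlapped. The 41 markers that were tested had a median difference of 0.01, with 22 above 0. Relative to the library total, marco averaged 3120 and 1587 CPM in 24 °C LPS and control libraries, and 1820 and 1999 CPM at 28 °C. MPEG1 (ENSDARG00000043093) averaged 274 and 131 CPM, and 133 and 232 CPM. Another MPEG1 gene (ENSDARG00000055290) had the reverse order, with 166 and 181 CPM, and 197 and 148 CPM. The neutrophil markers EPX (ENSDARG00000019521), MMP9, lyz and CSF3R had counts in all 20 libraries, as did the macrophage marker marco. The symbol EPX is that of a human orthologue, and the gene was taken here as the neutrophil marker mpx. EPX and lyz are outside the list of 20. Relative to the library total, EPX averaged 463 CPM in 24 °C LPS and 206 CPM in 24 °C control libraries. At 28 °C it averaged 129 CPM with LPS and 213 CPM in controls. Means of MMP9 and lyz had the same order within each temperature, while CSF3R was lower with LPS at both. CSF3R averaged 34.5 CPM with LPS and 47.7 CPM in controls at 24 °C, and 30.8 and 61.2 CPM at 28 °C. The part of these cells in the differences of cytokine and effector genes was not tested. Within the macrophage list LGMN, a lysosomal protease, was called at 1.87, and apoeb, an apolipoprotein E gene, at -2.88 alongside csf1rb. apoeb averaged 6.65 ± 2.73 CPM in 24 °C LPS and 10.8 ± 3.60 CPM in 24 °C control libraries, and 6.02 ± 3.62 CPM in 28 °C LPS and 1.31 ± 0.870 CPM in 28 °C control libraries (SD, n = 5 each).

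**Figure D3:**
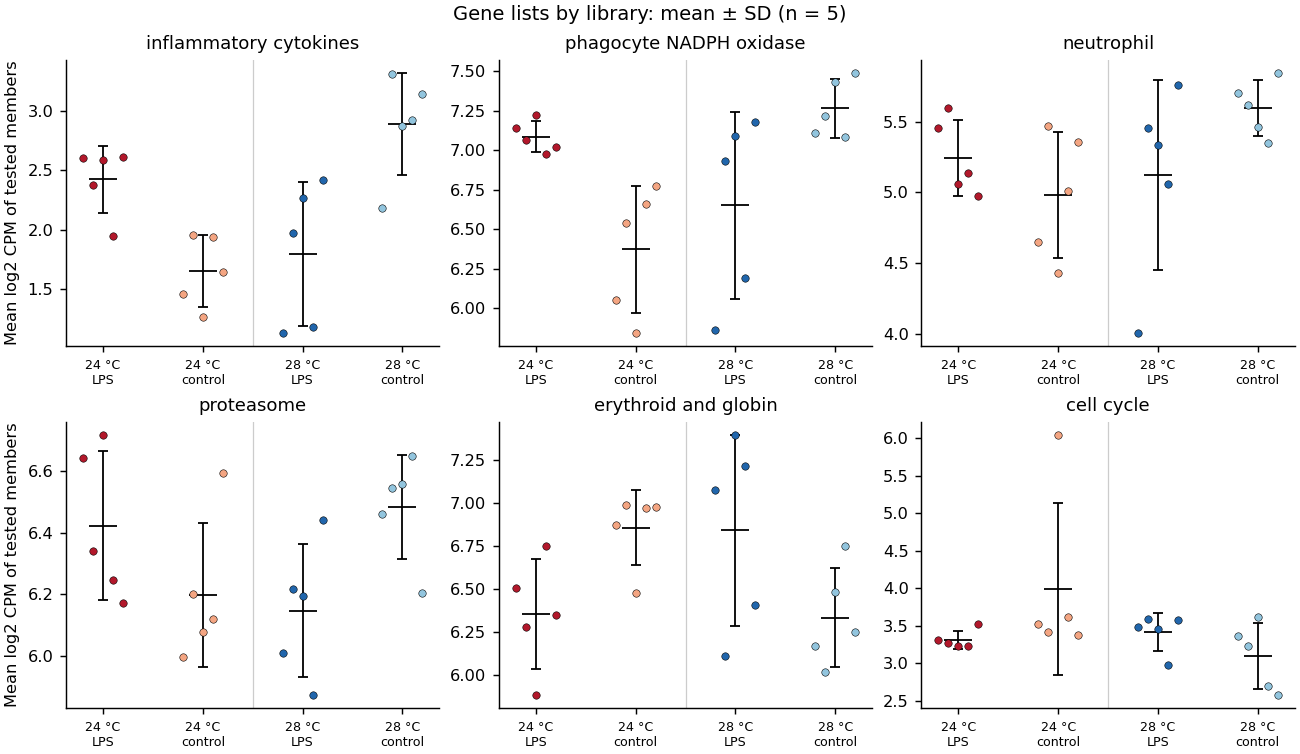
Points are the mean log2 CPM of the tested members of a list in each of the 5 libraries of a group, with the group mean ± SD, for 6 gene lists; the y axes do not start at 0. Group means of inflammatory cytokines and NADPH oxidase genes lie higher with LPS than in controls at 24 °C and lower at 28 °C. Means of erythroid genes have the reverse order. Single libraries of LPS and control overlap in each of these comparisons except for NADPH oxidase genes at 24 °C. In the cell cycle panel 24 °C control replicate 4 stands at 6.04, apart from the rest.

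Other genes were named for a small p, not for a shared function. mcl1b, an anti-apoptotic Bcl-2 relative, differed by 1.92 ± 0.32 (edgeR adjusted p 0.0119), with 179.5 ± 24.9 CPM in 24 °C LPS and 81.0 ± 26.0 CPM in 24 °C control libraries, and 116 ± 24.2 CPM in 28 °C LPS and 199 ± 61.5 CPM in 28 °C control libraries (SD, n = 5 each). CH25H makes 25-hydroxycholesterol, an antiviral oxysterol, and differed by 3.13 ± 0.54 (edgeR adjusted p 0.0135). LPIN1, a phosphatidate phosphatase, differed by 2.44, hsd17b14, a hydroxysteroid dehydrogenase, by 2.33, and DESI1, a SUMO isopeptidase, by 2.53. PIKFYVE, the lipid kinase that makes phosphatidylinositol 3,5-bisphosphate on endosomes, differed by 1.62 ± 0.27 (edgeR adjusted p 0.0119) at a high level of 259 ± 50.6 CPM in 24 °C LPS and 127 ± 31.3 CPM in 24 °C control libraries, and 184 ± 20.05 CPM in 28 °C LPS and 278 ± 62.7 CPM in 28 °C control libraries (SD, n = 5 each). ITPKC, an inositol trisphosphate kinase, and SMURF1, a ubiquitin ligase, were called at 1.45 and 1.37. Both stood with PIKFYVE in the list of 32 ubiquitin ligase and endosomal lipid kinase genes. That list was chosen with earlier results of these data known, so its calls are a description. Of the 32 genes 17 had a difference above 0, and the list's median was 0.08. SLC30A1, the zinc exporter of the plasma membrane, differed by 1.88 ± 0.34 (edgeR adjusted p 0.0159), and sowahd, an ankyrin repeat gene, by 1.44.

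Of the 44 tested adhesion and migration genes 5 were called, all with a higher response, against 1.31% of all tested genes. They were ALCAM, both RASGEF1B genes, JAM3, a junctional adhesion molecule, and sema4ab, a semaphorin, at 1.82 (edgeR adjusted p 0.0268). The 2 RASGEF1B genes are paralogs that could share reads, and their known biochemistry is nucleotide exchange. The list was chosen with earlier results of these data known, so its share of calls is a description. The list's median was 0.42. CLDN5, the tight junction claudin of endothelium, was the 1 called gene of 38 stromal and endothelial markers, at 2.74 (edgeR adjusted p 0.0331). A count of 1 in 38 is near the 1.31% of all genes, and 31 of its 38 members had a difference above 0, against 7482 of all 17196 genes. In the list of 20 glucocorticoid-responsive genes sgk1, a kinase that steroid hormones induce, was called at 1.09 ± 0.21 (edgeR adjusted p 0.0199) along with nfkbiaa. Its level in 28 °C LPS libraries, 116 ± 20.6 CPM (SD, n = 5), lay close to the 114 ± 12.1 CPM of 24 °C LPS libraries, and the controls of 24 °C were lower at 64.8 ± 8.70 CPM, against 140.5 ± 24.7 CPM in the controls of 28 °C.

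Protein folding and turnover genes gave 2 calls. Of 30 unfolded protein response genes 24 had a difference above 0, and SDF2L1 and PDIA3, both of the endoplasmic reticulum, were called at 1.63 and 0.99. With 1 library left out SDF2L1 lay between 1.47 and 1.89 and PDIA3 between 0.91 and 1.122, and each was called in 5 of those 20 fits. All 36 tested proteasome genes had a difference above 0, with a median of 0.54, against 7482 of all 17196 genes above 0, but 0 of them were called by edgeR. An unadjusted p under 0.05 was reached by 19, while DESeq2 called 9 and limma voom 4. These counts were 3736, 1127 and 547 over all 17196 tested genes. Their closest, PSMB5, a catalytic subunit, had 0.67 ± 0.17 (edgeR adjusted p 0.0502). Subunits of 1 complex are not independent observations.

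**Figure D4:**
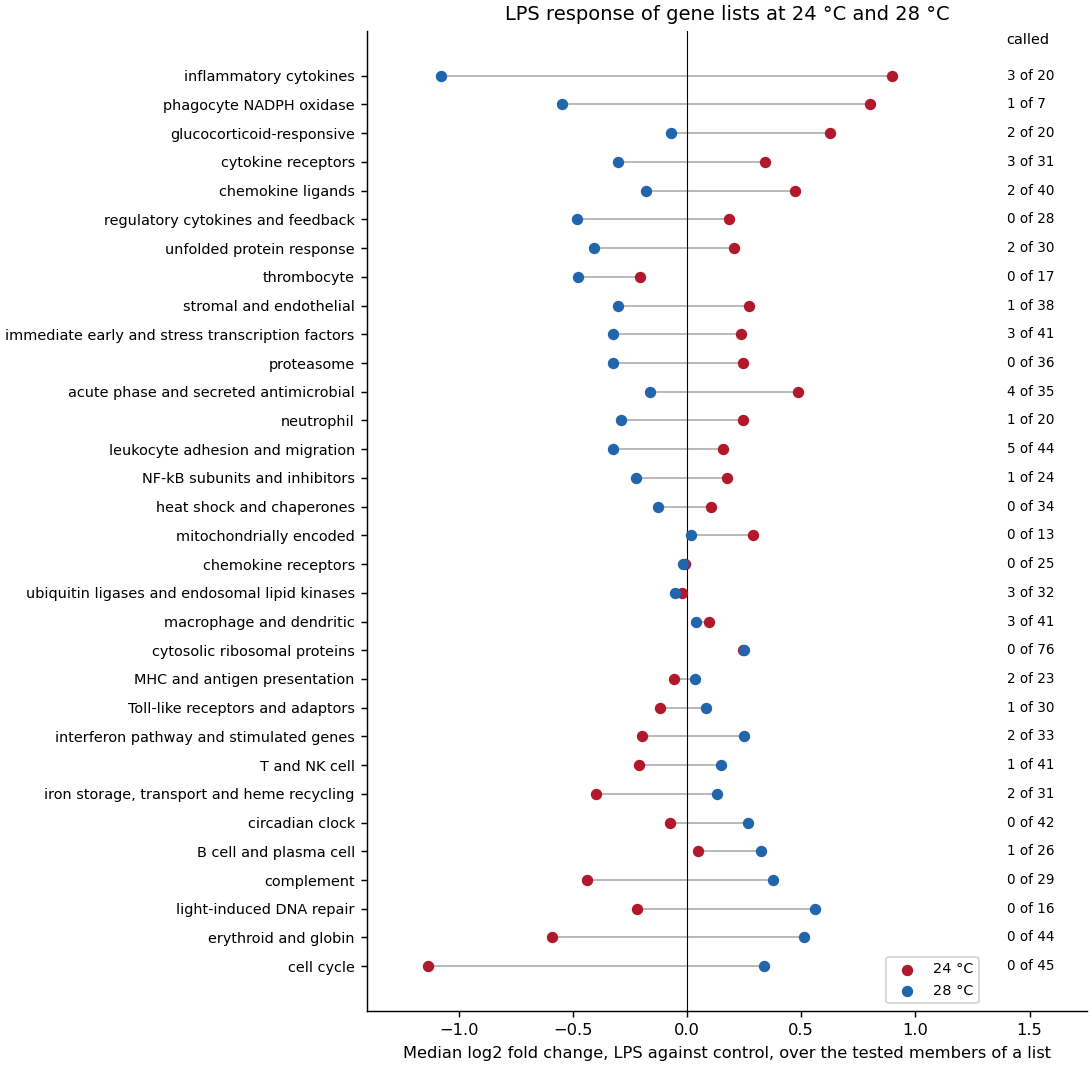
For 32 gene lists, dots give the median log2 fold change of LPS against control over tested members at 24 °C (red) and 28 °C (blue), and the numbers give members called for a difference of responses out of those tested; 5 lists of other organs are left out. Inflammatory cytokines lie at 0.90 at 24 °C and -1.08 at 28 °C, and erythroid genes at -0.59 at 24 °C and 0.51 at 28 °C.

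Of the 72 genes with a lower response at 24 °C, ciita and cd74a were the called members of the list of 23 antigen presentation genes. ciita, the master regulator of MHC class II genes, had 7.93, 17.8, 18.0, 16.3 and 12.3 CPM in 24 °C LPS libraries, against 19.2, 27.14, 16.0, 26.6 and 16.4 CPM in 24 °C controls. It had 34.1, 28.8, 24.4, 36.5 and 27.3 CPM in 28 °C LPS libraries, against 14.0, 11.9, 14.5, 9.44 and 17.4 CPM in 28 °C controls. The groups overlapped at 24 °C and were apart at 28 °C, where LPS was higher. The difference was -1.71 ± 0.33 (edgeR adjusted p 0.0199) and -1.82 without 24 °C control replicate 4. cd74a, the invariant chain of MHC class II, had 278, 195, 484, 371 and 217 CPM in 24 °C LPS libraries, against 460.4, 834, 257, 640.3 and 262 CPM in 24 °C controls. It had 832, 596, 627, 438 and 684 CPM in 28 °C LPS libraries, against 327, 369, 167, 216 and 224 CPM in 28 °C controls. It too was apart only at 28 °C, with a difference of -1.95 ± 0.46 (edgeR adjusted p 0.0430). Its call held in 8 of the 20 fits with 1 library left out. Of the 23 antigen presentation genes tested, 11 had a difference above 0, and the median was -0.02. The paralog cd74b had -1.58 (edgeR adjusted p 0.0710).

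Of 33 tested interferon pathway genes, RSAD2 and stat2 were called by edgeR, both with a lower response. A difference above 0 was found for 13, with a median of -0.23. An unadjusted p under 0.05 was reached by 13, against 3736 of all 17196 tested genes. DESeq2 called 12 and limma voom 6, against 1127 and 547 of all 17196 tested genes. RSAD2 encodes viperin, an antiviral radical enzyme. It had 24.2, 29.7, 29.2, 38.3 and 16.8 CPM in 24 °C LPS libraries, against 31.8, 132, 65.6, 70.5 and 75.5 CPM in 24 °C controls. It had 88.3, 46.0, 97.7, 20.2 and 33.1 CPM in 28 °C LPS libraries, against 17.5, 4.61, 13.9, 36.2 and 9.63 CPM in 28 °C controls. Groups overlapped at both temperatures, with replicate 2 low among controls at 24 °C and replicate 5 high among controls at 28 °C. The difference was -3.24 ± 0.69 (edgeR adjusted p 0.0290), and the call held in 10 of the 20 fits with 1 library left out. stat2, a signal transducer of type I interferon, differed by -1.46 (edgeR adjusted p 0.0462). It lay between -1.63 and -1.26 with 1 library left out, and was called in 5 of those 20 fits. DHX58, a cytosolic RNA sensor, had -2.49 (edgeR adjusted p 0.0536). ifi44c2, of an interferon-induced family but outside the list, differed by -2.73 ± 0.55 (edgeR adjusted p 0.0240) and was called for LPS at 28 °C alone, at 2.17 ± 0.40 (edgeR adjusted p 0.0435).

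For igldcp the libraries held 36.5, 46.2, 62.5, 63.2 and 37.7 CPM in 24 °C LPS libraries, against 69.6, 103, 67.8, 72.6 and 64.3 CPM in 24 °C controls. It had 94.1, 116, 82.0, 31.3 and 61.8 CPM in 28 °C LPS libraries, against 23.5, 8.33, 16.2, 19.3 and 2.13 CPM in 28 °C controls. The 28 °C controls lay below all other libraries, and the groups were apart at both temperatures. The difference was -3.08 ± 0.60 (edgeR adjusted p 0.0199). Other genes named for a small p were ms4a17a.10, of the membrane-spanning MS4A family, at -1.77, and MEN1, which encodes the chromatin protein menin, at -1.18. aste1a and slc8a4b, a sodium-calcium exchanger, were among the largest negative differences at -3.31 and -3.35.

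Among the remaining named genes with large differences, NTN4, GDA and apoa1b were at low levels or carried by few libraries. NTN4, a secreted netrin, had 0.0939, 5.61, 3.50, 5.20 and 3.80 CPM in 24 °C LPS libraries, against 2.98, 7.18, 39.5, 6.06 and 6.31 CPM in 24 °C controls. It had 0.210, 0.927, 5.95, 1.95 and 1.22 CPM in 28 °C LPS libraries, against 0.121, 0, 0.132, 0 and 0 CPM in 28 °C controls. The near absence in 28 °C controls and the high value of 24 °C control replicate 4 both entered its difference of -6.84, which was -5.73 without that replicate (edgeR adjusted p 0.0467). GDA, guanine deaminase, differed by 6.84, with 122 CPM in 28 °C control replicate 2 and at most 30.9 CPM in each of the other 19 libraries. apoa1b, an apolipoprotein made mainly by liver, differed by -5.85, with 140 CPM in 24 °C control replicate 5 and at most 34.2 CPM elsewhere, and it was -5.95 without 24 °C control replicate 4 (edgeR adjusted p 0.0577). sult2st3, a sulfotransferase, differed by 3.14, and by 3.09 without that replicate (edgeR adjusted p 0.0551).

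Lymphocyte lists held 1 called gene each, against 1.31% of all tested genes, and both called genes went against the median of their list. TAGAP, a GTPase-activating protein of T cells, was 1 of 41 T and NK cell genes. It had 34.9, 54.1, 54.8, 70.7 and 39.5 CPM in 24 °C LPS libraries, against 18.2, 18.5, 11.5, 20.5 and 16.3 CPM in 24 °C controls. It had 39.8, 51.0, 21.7, 38.5 and 36.6 CPM in 28 °C LPS libraries, against 40.4, 55.6, 22.9, 64.2 and 40.1 CPM in 28 °C controls. It was apart at 24 °C and overlapped at 28 °C, with a difference of 1.83 ± 0.37 (edgeR adjusted p 0.0247). The median of its list was -0.43, with 8 of 41 genes above 0. Among 26 B cell and plasma cell genes, cd22, an inhibitory lectin of B cells in mammals, was called at 2.00 (edgeR adjusted p 0.0310), while 9 of 26 were above 0 and the median was -0.64. The immunoglobulin heavy chain gene ighm was called for LPS at 28 °C, at 2.12 ± 0.39 (edgeR adjusted p 0.0435). Its difference of -1.89 missed the threshold (edgeR adjusted p 0.0713).

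Globin and other red cell genes are abundant in spleen RNA. Of 44 tested erythroid and globin genes, 1 had a difference above 0, the median was -1.23, and edgeR called 0. An unadjusted p under 0.05 was reached by 23, while DESeq2 called 9 and limma voom 3. These counts were 3736, 1127 and 547 over all 17196 tested genes. The summed level of all 49 matched genes was 103857 to 224396 CPM in 24 °C LPS libraries, 131162 to 222740.0 CPM in 24 °C controls, 131767 to 315909 CPM in 28 °C LPS libraries and 92786 to 177359 CPM in 28 °C controls. hbaa1, an alpha globin gene with near-identical copies, averaged 37036 ± 18432 CPM in 24 °C LPS and 59375 ± 15831 CPM in 24 °C control libraries, and 91595 ± 51906 CPM in 28 °C LPS and 34722 ± 13183 CPM in 28 °C control libraries (SD, n = 5 each). Its difference was -2.08 ± 0.53 (edgeR adjusted p 0.0547), and it was called by DESeq2 and limma voom. When libraries were scaled without erythroid and the most abundant genes, 214 genes were called, of which 205 were among the 226. This setting changes only the scaling of libraries and leaves their red cell content as it was. The part of red cell content in the differences of other genes was not tested. Cell cycle genes had a median of -1.50 with all libraries and -0.53 without 24 °C control replicate 4.

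Transcripts of other organs were followed through the calls. Of 38 tested liver markers 4 had a difference above 0, and their median was -3.15 with all libraries and -3.34 without 24 °C control replicate 4. The sums of all 44 matched markers were 295 to 602 CPM in 24 °C LPS libraries, 160.0 to 1534 CPM in 24 °C controls, 262 to 1135 CPM in 28 °C LPS libraries and 431 to 981 CPM in 28 °C controls. In this list edgeR called apoa1b with a lower response and CP, against the list's median, with a higher one. DESeq2 called 14 of the 38, against 1127 of all 17196 tested genes. The part of liver transcripts in the differences of acute phase genes was not tested. No acinar pancreas, ovary, endocrine pancreas or kidney and intestine marker was called by edgeR. An unadjusted p under 0.05 was reached by 1 of 21 acinar, 7 of 9 ovary, 1 of 6 endocrine pancreas and 3 of 12 kidney and intestine markers. It was reached by 3736 of all 17196 tested genes. DESeq2 called 1 of these markers, from the kidney and intestine list. The median difference of the 9 ovary genes was -4.77 with all libraries and -0.64 without 24 °C control replicate 4. The median difference of the 21 acinar genes was -1.69 with all libraries and 2.39 without 24 °C control replicate 4. Without that library 182 genes were called, of which 147 were among the 226, 98 with a higher and 49 with a lower response. Without the 3 libraries richest in acinar pancreas transcripts, an alternative added after the data were seen, 178 genes were called, of which 128 were among the 226. With the summed acinar level as a covariate the count was 282.

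The clock gene PER2 was called for LPS but not for the difference of responses, as was ighm at 28 °C. PER2, a light- and stress-responsive period gene, was higher with LPS at both temperatures, by 1.28 ± 0.22 at 24 °C and 1.34 ± 0.22 at 28 °C (edgeR adjusted p 0.0376 and 0.0243). Its difference was -0.05 ± 0.30 (edgeR adjusted p 0.946) and did not pass the threshold. PER2 was named after its value was seen. PER1 differed by 1.81 without passing the threshold (edgeR adjusted p 0.0562), and 0 of 42 circadian clock genes were called by edgeR. An unadjusted p under 0.05 was reached by 11, while DESeq2 called 5 and limma voom 1. These counts were 3736, 1127 and 547 over all 17196 tested genes. Of the 42 clock genes 12 had a difference above 0, against 7482 of all 17196 genes, and the list's median was -0.45.

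The number of called genes depended on single libraries. With 1 library left out it ran from 59, without 28 °C control replicate 2, to 654, without 28 °C LPS replicate 2, and 14 of the 20 fits moved it by over 1.5 times. It was 67 without 24 °C control replicate 3 and 68 without 28 °C LPS replicate 1, and 72, 73, 87 and 104 without 24 °C LPS replicates 3, 1, 2 and 8. It was 85, 135 and 394 without 28 °C control replicates 3, 7 and 5, and 93, 107 and 471 without 28 °C LPS replicates 4, 3 and 8. Counts without the other 6 libraries lay between 156 and 306. The direction of all 226 genes, which were called on all 20 libraries, was kept in each of these fits. A change of sign was unlikely by design, as these fits share all but 1 library with the full fit. In all 20 of them 51 genes stayed called, among them RASGEF1B (both genes), ALCAM, ets2, LPIN1, hsd17b14, DESI1, mcl1b, CP, PIKFYVE, CH25H, sowahd, SLC30A1, il34, ITPKC, NCF4, ACOD1, tlr5b, sgk1, tnfb, cxcl8a and cxcl11.1 with a higher response, and ciita and igldcp with a lower one.

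Other named genes lost their call in some of these fits, always with the same sign. csf1rb lost it without 24 °C LPS replicate 1 (edgeR adjusted p 0.0501), with values between -3.99 and -2.96 over the 20 fits, and TAGAP lost it without 28 °C control replicate 2 (edgeR adjusted p 0.0636), with values between 1.69 and 1.99. SMURF1 lost it without 24 °C LPS replicate 2 or 28 °C LPS replicate 1, pglyrp5 without 24 °C control replicate 3 or 24 °C LPS replicate 1, and ifi44c2 without 24 °C control replicate 3 or 28 °C control replicate 2. The call held in 16 of 20 fits for ms4a17a.10 and tnfrsf9a, in 15 for sema4ab and CEBPA, in 14 for NTN4, in 13 for aste1a and in 12 for MEN1 and cd22. It held in 11 for apoeb, GDA and sult2st3, in 10 for LGMN and RSAD2, in 9 for CLDN5, in 8 for il10ra and cd74a and in 7 for slc8a4b. For srgn and nfkbiaa it held in 6, and for SDF2L1, PDIA3, stat2, JUND, crp3 and apoa1b in 5. All of those from ms4a17a.10 on lost it without 28 °C control replicate 2, and all of them but sema4ab also without 24 °C control replicate 3. Of these genes, il10ra, sult2st3, SDF2L1, srgn, PDIA3, nfkbiaa, stat2, JUND, crp3 and apoa1b also lost it without 24 °C control replicate 4.

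**Figure D5:**
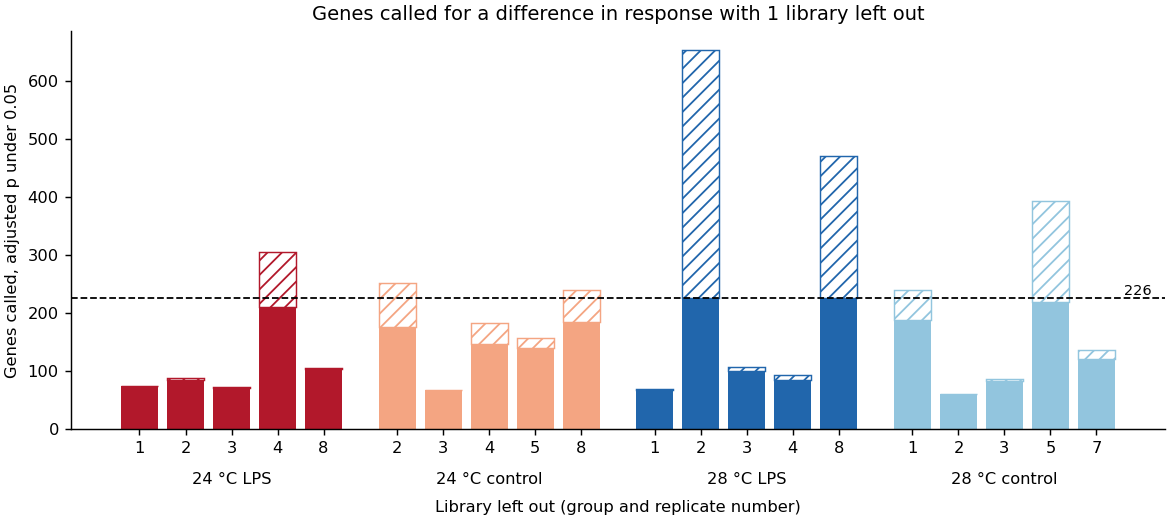
Bars give the number of genes called for a difference of responses when the library on the x axis is left out; solid bars are genes also called with all 20 libraries, hatched bars are further genes, and the dashed line marks the 226 of the full fit. Counts run from 59 to 654.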

How the data were processed

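Spleen RNA of 30 zebrafish was sequenced, and the 20 libraries of fish incubated at 24 °C or 28 °C were analysed. Per the labels' protocols, a directional kit was used on oligo(dT)-selected RNA. GRCz11 was the build, and STAR, bcl2fastq, DESeq2 1.11.1, FastQC 0.11.5 and cutadapt 1.12 the tools, per the submitters' processing notes. The counting program, its annotation and its strand setting were not given in the sources used here. Counts of paralogs and of overlapping or antisense genes are therefore uncertain. As deposited, the values are whole-number counts of each gene, not normalised, for 31901 Ensembl IDs, of which 29178 had a symbol in a name table. Many symbols are those of human orthologues.

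The analysis used edgeR 4.0.16 in R 4.3.3. Filtering with filterByExpr left 17196 genes, libraries were scaled by TMM, and the 4 groups entered 1 robust quasi-likelihood fit with 16 residual degrees of freedom (common biological coefficient of variation 0.483). The contrast was 24 °C LPS minus 24 °C control, minus the same at 28 °C, with the 4 simple contrasts beside it. P-values were adjusted by Benjamini-Hochberg over all tested genes, and adjusted p under 0.05 was the threshold for a call. An SE is the log2 value over the root of its F statistic. CPM of single genes are relative to the TMM-scaled library size with SD over 5 libraries. The levels of TLX1, marco, MPEG1, EPX and CSF3R and all summed marker levels are relative to the library total. Sums run over all matched genes of a list, tested or not. Mean log2 CPM used a prior count of 2. The total counts per library (14840723 to 23401031) limit the precision of genes at low levels. The fit was tested on simulated data.

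Genes could be named by a rule. Called genes needed a symbol other than a clone name and at least 5 CPM in the highest group. Of these the rule took the 12 smallest p with a higher and 8 with a lower response, and the 5 largest differences in each direction. It added up to 4 members at that level of each of 37 gene lists by p, whether called or not, and the most abundant genes. Not all of them are described above. Members of the complement, chemokine receptor and cytosolic ribosomal protein lists, with 0 calls by edgeR, are among those left out. Other genes were named after their values were seen: il1b, il6, PER2, and, where a count was 5 or fewer, its members, such as il12bb and JAM3. The comparison, the gene lists and the named genes were chosen with earlier results of these data known. Lists are described by counts and medians with no test. Alternatives were edgeR with size factors of DESeq2, TMM leaving out erythroid and abundant genes, no filter, a filter of 1 CPM in 5 libraries, DESeq2 1.42.0, limma 3.58.1 (voom with sample quality weights), no robust estimation, all 30 libraries in one fit, an acinar pancreas covariate, the replicate number as a block and each library left out. Leaving out 3 libraries was added after the data were seen. Replicates of 1 group always differed beyond sampling noise, with chi-square per degree of freedom at least 31.7 in the 40 pairs.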

Additional observations from a re-analysis of the deposited data

Results flagged for a closer look

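Within groups of 5 libraries, 7 single values stood apart from the other 4 by Dixon's test at its 95% critical value, out of 84 groups checked, of which chance flags about 1 in 20. ALCAM had 53.93 CPM in 24 °C control replicate 5, against a next highest of 40.22 CPM, and igldcp had 103.1 CPM in 24 °C control replicate 3, against 72.57 CPM. Summed acinar pancreas markers stood apart at 62410 CPM in 24 °C control replicate 4, at 52050 CPM in 28 °C LPS replicate 8 and at 34350 CPM in 28 °C control replicate 7, against next highest sums of 971.6, 4348 and 7168 CPM in their groups. Summed ovary markers were 11530 CPM in 24 °C control replicate 4, against 361.3 CPM, and summed liver markers were 1135 CPM in 28 °C LPS replicate 8, against 506.1 CPM.

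The response to LPS differed between the 2 incubation temperatures, by edgeR's test of the difference itself, for 226 genes. On the log2 scale, 24 °C minus 28 °C, the named genes with a higher response differed by the following values. Among ligands and receptors these were 3.29 for cxcl8a, 4.67 for cxcl11.1, 2.501 for tnfb, 1.23 for il34, 2.49 for tnfrsf9a, 1.28 for il10ra and 1.54 for tlr5b. Among regulators, transcription factors and adhesion genes they were 2.45 for RASGEF1B (ENSDARG00000033614), 2.04 for RASGEF1B (ENSDARG00000044251), 2.84 for ALCAM, 1.81 for ets2, 2.11 for CEBPA, 1.09 for JUND, 1.79 for nfkbiaa, 1.82 for sema4ab, 1.83 for TAGAP, 2.00 for cd22, 2.74 for CLDN5, 1.09 for sgk1 and 1.92 for mcl1b. Among effectors, enzymes and transporters they were 2.69 for ACOD1, 2.98 for CP, 3.41 for pglyrp5, 1.55 for NCF4, 1.34 for srgn, 1.87 for LGMN, 3.13 for CH25H, 2.44 for LPIN1, 2.33 for hsd17b14, 6.84 for GDA, 3.14 for sult2st3 and 1.88 for SLC30A1. Among the remaining genes they were 1.62 for PIKFYVE, 1.45 for ITPKC, 1.37 for SMURF1, 2.53 for DESI1, 1.44 for sowahd, 1.63 for SDF2L1 and 0.99 for PDIA3. Genes with a lower response were -1.71 for ciita, -1.95 for cd74a, -3.24 for RSAD2, -1.46 for stat2, -2.73 for ifi44c2, -3.20 for csf1rb, -2.88 for apoeb, -1.77 for ms4a17a.10, -3.08 for igldcp and -1.18 for MEN1 of the immune and nuclear genes, and -6.84 for NTN4, -3.31 for aste1a, -3.35 for slc8a4b, -8.54 for crp3 and -5.85 for apoa1b of the large differences.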

How the results depend on the processing

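The alternatives reused libraries on which the 226 genes were called, so a kept direction is a description. All 226 kept their direction in every alternative in which they were measured, and DESeq2 called 225 of them, but the count moved. It was 125 (97 higher, 28 lower) with no filter on low counts, 1127 (610 and 517) with DESeq2, 547 (321 and 226) with limma voom, 134 (30 lower) with all 30 libraries in one fit, and 109 genes were lower with the acinar pancreas covariate. It was 216 with DESeq2 size factors, 251 with the stricter filter and 223 without robust estimation. In all 10 alternatives that left out no library, 67 genes were called. LPIN1 and ciita lost their call with all 30 libraries in one fit. GDA was called in 6 of these 10 alternatives, apoa1b in 5 of 10 and crp3 in 4 of the 9 that measured it. LPS against control at 24 °C gave 1 gene with no filter, 290 with DESeq2, 3 with limma voom and 3 with all 30 libraries. At 28 °C it gave 4 with no filter, 111 with DESeq2 and 2 with all 30 libraries. Control fish gave 70 genes with no filter, 885 with DESeq2, 18 with limma voom and 440 with all 30 libraries, and LPS fish gave 45 with DESeq2. Without the 3 libraries richest in acinar pancreas transcripts, LPS against control gave 0 genes at 24 °C and 0 at 28 °C, and control fish gave 8. With 1 library left out, the difference of responses gave 59 to 654 genes (50 to 372 higher, 7 to 282 lower), LPS against control 0 to 12 at 24 °C and 0 to 18 at 28 °C, control fish 34 to 242 and LPS fish 0 to 2. The difference of PER2 changed sign, to 0.0436 with limma voom and between -0.20 and 0.14 with 1 library left out. The cause of these changes was not tested.

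Libraries of the same replicate number in different groups did not deviate together on average. Over 22 pairs the mean correlation of their deviations was 0.02 (range -0.17 to 0.45), against -0.0042 over 128 pairs of different numbers. The 4 pairs over 0.1 were replicate 3 of 24 °C control and 24 °C LPS, and replicates 2 of 24 °C control, 28 °C control and 28 °C LPS with each other. The numbers were not taken to pair the samples. With the number as a replicate block the difference of responses gave 148 genes (29 lower), of which 115 were among the 226, LPS against control 22 at 24 °C and 0 at 28 °C, and control fish 25. Of the 54 named genes called without it 21 were not called with it, tnfb and cxcl11.1 among them.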

Other observations

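Subunits of the vacuolar proton pump (V-ATPase), which acidifies lysosomes and phagosomes, recurred among the called genes. This group was put together after the values were seen, so it carries no test. Of 27 genes matched by symbol 25 were tested, and 20 of them had a difference above 0, against 7482 of all 17196 genes. Of the 25, 7 were called, all with a higher response at 24 °C, against 1.31% of all tested genes. The median difference of the 25 was 1.13, against -0.12 over all tested genes, from a median response of 0.60 at 24 °C and -0.48 at 28 °C. ATP6V0C (ENSDARG00000057853), which encodes the membrane ring subunit, averaged 1509 ± 190.1 CPM in 24 °C LPS and 887 ± 256 CPM in 24 °C control libraries, and 1045 ± 259 CPM in 28 °C LPS and 1627 ± 284 CPM in 28 °C control libraries (SD, n = 5 each). Its difference was 1.41 ± 0.29 (edgeR adjusted p 0.0270). The other called members were ATP6V0D1 at 1.38, ATP6V1G1 at 1.58, ATP6V1H at 1.29, TCIRG1 (ENSDARG00000105142) at 1.48, ATP6V1C1 (ENSDARG00000035880) at 1.25 and the accessory subunit ATP6AP2 at 1.13. A second TCIRG1 gene (ENSDARG00000016835) had -1.49, which did not pass the threshold (edgeR adjusted p 0.112). Without 24 °C control replicate 4 the median was 1.03 and 7 were called.

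Zinc transporters were grouped in the same way after SLC30A1 had been seen. Of 22 matched genes 15 were tested. Against 1.31% of all tested genes, 3 of the 15 were called, all with a higher response. These were the plasma membrane exporter SLC30A1, the importer SLC39A10 and SLC39A7, which releases zinc from the secretory pathway. SLC39A10 averaged 31.3 ± 4.84 CPM in 24 °C LPS and 18.6 ± 2.51 CPM in 24 °C control libraries, and 22.5 ± 5.20 CPM in 28 °C LPS and 34.8 ± 8.84 CPM in 28 °C control libraries (SD, n = 5 each), a difference of 1.38 ± 0.27 (edgeR adjusted p 0.0204). SLC39A7 differed by 1.3 ± 0.29 (edgeR adjusted p 0.0331). Of the 15 tested members, 6 had a difference above 0, and their median was -0.10.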
